A study of Mus musculus with 2 samples.

Results

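Fibroblasts and meningeal cells made up 52 of the 35285 hippocampal nuclei that passed the gene and mitochondrial filters, out of 36324 barcodes. A nucleus was a member if it held at least 500 genes, at most 5% mitochondrial UMIs and at most 10000 UMIs (a UMI is a molecular tag that marks 1 captured RNA molecule). It also needed at least 5 UMIs over 7 marker genes, with at least 3 of them detected, and at most 1 UMI of the endothelial genes Flt1 and Cldn5 together. The markers were Slc6a13, Bnc2, Ranbp3l, Col1a1, Col1a2, Slc47a1 and Lum. Since the members were chosen by measured values, the UMIs of these 7 markers and of Flt1 and Cldn5, the levels of these genes, and the comparison of members with other nuclei, are descriptions. The cell type is named from these markers alone.

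The nuclei came from the hippocampus of 3-month-old mice with the genotype Stra8L/-; Nestin-Cre, a conditional deletion of Stra8. Stra8 is known as the retinoic acid-induced switch into meiosis in germ cells. There was 1 library from male and 1 from female tissue, both groups carried the deletion and the Cre transgene, and the number of animals per library is not given in the sources used here. Nestin-Cre acts in neural progenitors and the neurons and macroglia that descend from them. Recombination in meningeal cells could not be read from these counts. With 1 library per group no test was possible. Sex, animal, dissection, depth and library cannot be told apart, and every interval is a 95% interval of counting error only.

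The brain is wrapped in the dura, the arachnoid and the pia, and fibroblasts of the pia follow penetrating vessels into the tissue as perivascular fibroblasts. The outer arachnoid cells form a barrier with epithelial junctions and drug efflux pumps, while the pial layer lays down the basement membrane on the brain surface. Meningeal fibroblasts are also known as a source of retinoic acid, of bone morphogenetic proteins and of insulin-like growth factors, and they carry many organic ion and amino acid transporters.

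The male library gave 17 members of 16034 nuclei, a share of 0.106% (exact Clopper-Pearson interval 0.0618 to 0.17%). The female library gave 35 of 19251, a share of 0.182% (0.127 to 0.253%). The 2 intervals overlapped, but not with every nucleus thinned to 1000 UMIs and a rule of 2 UMIs in 2 markers, where the shares were 0.102% (0.0584 to 0.166%) and 0.271% (0.201 to 0.359%). Male members held 80375 UMIs and female members 140514. Their depth ran from 1540 to 9289 UMIs per nucleus (median 3788) in the male library and from 1667 to 9522 (median 3402) in the female library. The median mitochondrial share was 1.44% in male and 1.63% in female members, against 0.606% and 1.39% in the other nuclei. A further 4 male and 16 female nuclei met the marker rule but held over 10000 UMIs. Of the barcode sequences, 101 occurred in both libraries, and none of these was a member. The sum of marker UMIs ran from 5 to 21 (median 9) in male and from 5 to 46 (median 12) in female members.

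**Figure D1:**
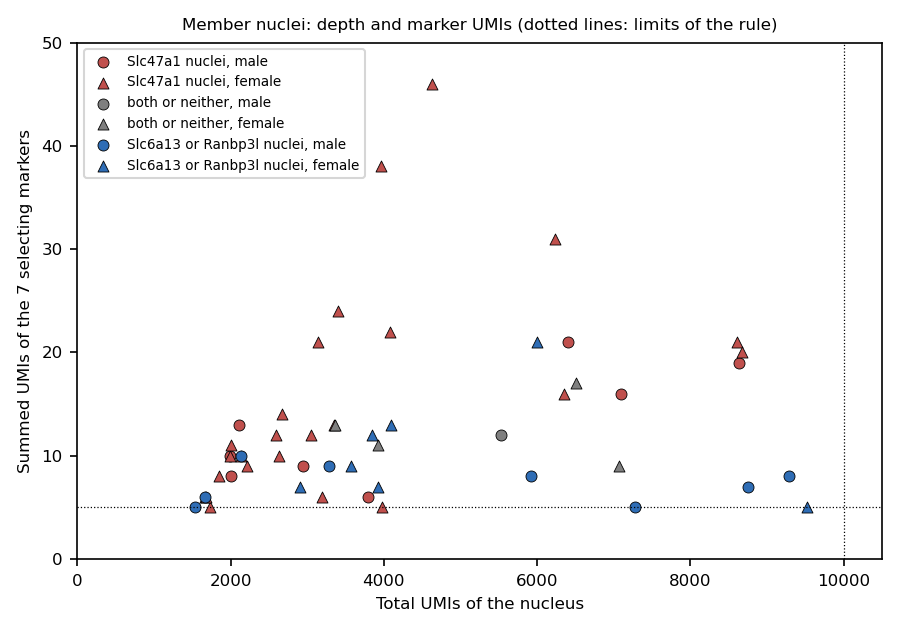
Each point is 1 of the 52 member nuclei, with its total UMIs on the horizontal axis and its summed UMIs of the 7 selecting markers on the vertical axis; circles are male, triangles female, and colours give the kind of nucleus described below. The dotted lines are the limits of 5 marker UMIs and 10000 total UMIs, and the nuclei with the highest marker sums, up to 46, are female Slc47a1 nuclei.

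At the edge of the rule, 4 male and 6 female members held only 5 or 6 marker UMIs. In these, Cped1 was at 1332 CPM (male) and 551 CPM (female), where CPM scales a gene's UMIs to the same total in every group. Just outside, 0 male and 8 female nuclei held 3 or 4 marker UMIs in at least 3 genes, and the 8 were at 725 CPM of Cped1. Another 8 male and 21 female nuclei held 5 or more marker UMIs in only 1 or 2 genes, with Cped1 at 837 and 260 CPM. Nuclei just outside the rule thus also held this transcript, and for it the rule cuts through a range. Other genes were mixed between the 6 female members at the edge and the 8 female nuclei outside. Mgp fell from 1194 to 181 CPM and Adamtsl3 from 276 to 90.6 CPM, while Foxp2 rose from 184 to 362 CPM. Foxp1 (1102 and 1132 CPM) and Ptgds (1056 and 996 CPM) were alike.

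The selecting markers were not spread evenly over the members. Col1a2, a chain of type I collagen, was detected in 14 of 17 male and 31 of 35 female members, at 323 and 505 CPM. Bnc2, a zinc finger protein of mesenchymal cells, was found in 11 and 30 members at 858 and 1836 CPM. Slc47a1, an organic cation exporter, was found in 8 and 26 members at 274 and 740 CPM. The GABA and taurine transporter Slc6a13 was found in 6 and 6 members at 149 and 92.5 CPM, and Ranbp3l in 8 and 8 members at 286 and 135 CPM. Lum, a small proteoglycan of collagen fibrils, was found in only 2 members of each library. As a measure of stray RNA, the share of nuclei with a Col1a2 UMI was 0% of 765 male and of 683 female microglia, at median depths of 1741 and 1907 UMIs, against 82.4% and 88.6% of the members, a share that the rule used. The remaining markers differed in microglia. Bnc2 was found in 6.80% of male and 12.4% of female microglia, Ranbp3l in 1.70% and 2.93%, and each of the other 4 markers in under 0.5%. In male and female astrocytes, Bnc2 was found in 0.413% and 1.33% of nuclei and Ranbp3l in 11.9% and 12.3%. Whether these UMIs were stray or came from the classes' own expression was not tested. With every nucleus thinned to 1000 UMIs the Col1a2 share of the members was 17.6% and 45.7%.

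The label was checked against the markers of other cell types. The rule itself limits the endothelial markers Flt1 and Cldn5, so their low counts check nothing. Of the 5 endothelial markers outside the rule, Pecam1, Mecom, Ptprb and Adgrl4 were at 0 in the members of both libraries and Abcb1a had 16 and 30 UMIs. Of 7 markers of pericytes and smooth muscle, Abcc9, Myh11 and Acta2 were at 0 in both libraries, while Pdgfrb had 3 male and 10 female UMIs and Atp13a5 6 and 9. The 7 together were at 124 CPM in male and 157 CPM in female members, above the 24.0 and 39.6 CPM of other nuclei, and their part in the results was not tested. In the pericyte and smooth muscle nuclei Pdgfrb alone was at 505 and 843 CPM. The excitatory neuron markers were all detected, at a summed 5487 CPM in male members (936 to 8450 CPM per nucleus) and 2911 CPM in female members (461 to 8294), against 8036 and 7077 CPM in other nuclei. Astrocyte markers were at 3198 and 1900 CPM in members and 1436 and 1668 CPM in others. With rules of the same form for the other types, 16 of 17 male and 25 of 35 female members also met at least 1, most often that of excitatory neurons (16 and 20 members) or astrocytes (9 and 13). How much of this was free RNA and how much came from droplets with more than 1 nucleus was not tested, and no doublet caller was run. The fibroblast transcripts Dcn and Pdgfra were held by few of the 52 members. Dcn, a collagen-binding proteoglycan, had 40 UMIs in 8 nuclei and Pdgfra, the platelet-derived growth factor receptor of fibroblasts, 15 in 7. Dcn was at 212 (male) and 164 CPM (female) against 7.44 and 2.66 CPM in other nuclei. Pdgfra was at 62.2 and 71.2 CPM against 17.3 and 20.6 CPM.

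Among 1423 genes with at least 30 UMIs over the members, 10 in each library and 10 nuclei, 83 were at least 4-fold higher in members than in all other nuclei in both libraries (5.83%). Both the 1423 and the 83 include 5 selecting markers, whose enrichment the rule fixed. Ratios are log2 of CPM plus 5 on each side, which understates the change of low genes, and their median over the 1423 genes was 0.47 among male and 0.38 among female nuclei. The 25 leading genes outside the selecting markers held matrix and matrix-modifying proteins, transporters, transcription factors and a growth factor. The members' level exceeded that of endothelial, pericyte and smooth muscle, astrocyte and microglial nuclei in both libraries for 239 of the 1423 genes (16.8%) and for 20 of these 25. The 25 were chosen by their ratio over all other nuclei, which include these classes, so the 20 are a description and no separate check. The 5 exceptions were Abcb1a, Slc6a20a, Klf2, Cp and 2610307P16Rik.

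The secreted and matrix genes came first. Adamtsl3, a matrix protein related to the ADAMTS proteases, stood at 510 CPM in male and 705 CPM in female members, against 3.46 and 5.76 CPM in other nuclei, log2 ratios of 5.93 and 6.04. Cped1 (mm10 chromosome 6, 21985916 to 22256404) stood at 1070 and 932 CPM against 7.79 and 11.1 CPM, ratios of 6.39 and 5.86. It had UMIs in 16 of 17 male and 25 of 35 female members. Mgp, an inhibitor of calcification, stood at 460 and 1651 CPM against 3.20 and 15.6 CPM, ratios of 5.83 and 6.33. The protease Adamts12 (4.65 and 4.43) and the endocytic collagen receptor Mrc2 (4.24 and 4.56) followed. Cp, the ferroxidase ceruloplasmin, was 5.00 and 3.83 higher on the log2 scale, but pericytes and smooth muscle cells were at 404 and 686 CPM against 460 and 249 CPM in members.

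**Figure D2:**
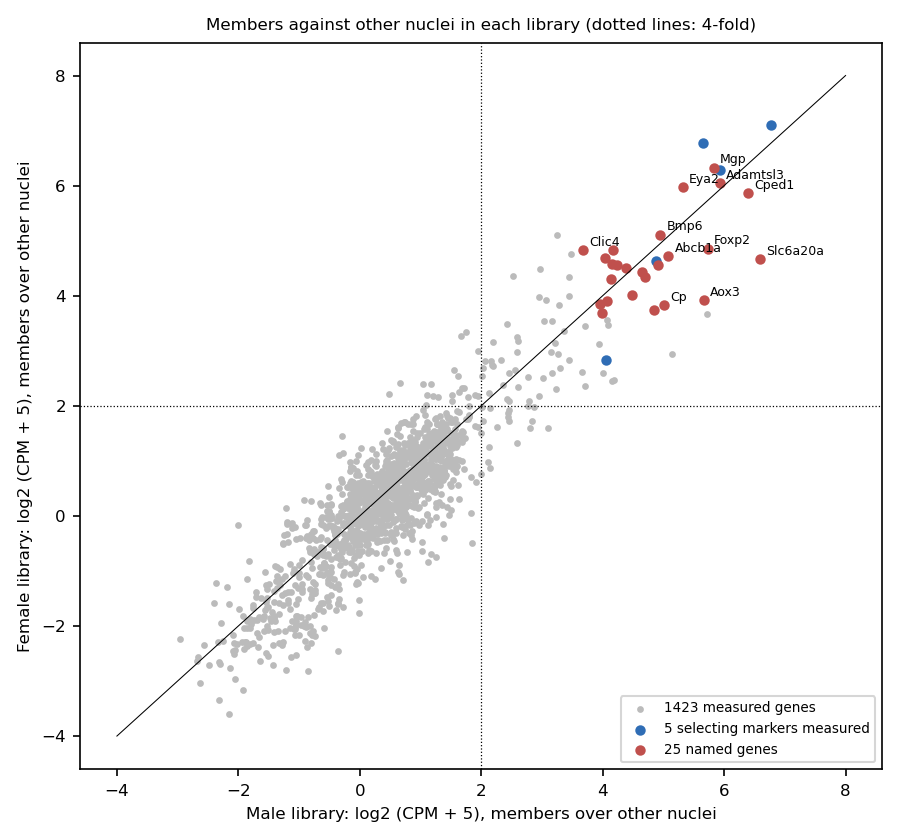
Each point is 1 of 1423 genes, with the log2 ratio of members over other nuclei (CPM plus 5) on the horizontal axis for the male and on the vertical axis for the female library. Red points are the 25 named genes, blue points the 5 selecting markers with enough UMIs, dotted lines mark 4-fold and the diagonal marks equal ratios; Slc6a20a lies below the diagonal, at 6.59 male and 4.67 female, and Clic4 above it, at 3.68 and 4.83.

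Matrix gene lists had few measured members at this depth. All gene lists were chosen with earlier results of these data known, so their counts are descriptions. Among all 1423 genes measured, 5.83% were past 4-fold in both libraries. The list of 20 fibrillar and fibril-associated collagens leaves out the selecting markers Col1a1 and Col1a2, which both reached the count minimum. Of the 20, 19 are listed in the files and 1, Col25a1, a membrane collagen, was measured in both libraries. It stood at 946 CPM in male and 2064 CPM in female members, 2.19 and 3.16 above other nuclei on the log2 scale. Of 22 basement membrane genes 2 were measured, and Lama2, a laminin chain, was past 4-fold (473 and 669 CPM, ratios of 2.76 and 2.52) while Lamc1 was at 1.54 and 0.65. Pericyte and smooth muscle nuclei held Lama2 at 404 and 858 CPM, the latter above the female members. Of 18 proteases and inhibitors 4 were measured and 2 were past 4-fold. None of 16 genes of elastic fibres and collagen crosslinking and none of 12 genes of fibroblast activation was measured. For a gene with no UMI, the limit of 3 counts is 37.3 CPM in male and 21.4 CPM in female members, so low levels of such genes were not detectable at this depth.

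Lists of the meningeal layers had few measured genes as well, and the share past 4-fold among all 1423 genes was 5.83%. Of the 12 arachnoid barrier genes 3 were measured, and Abcb1a was past 4-fold, while the adhesion molecule Alcam was at 2.04 and 1.73 and the tight junction scaffold Tjp1 at -0.04 and -1.22. Of 8 dural fibroblast genes 2 were measured, Mgp past 4-fold and Foxp1 at 1.63 and 2.26. Of 10 pial and perivascular genes 2 were measured, Lama2 past 4-fold and Cemip at 2.44 and 1.79. Klf2, a factor induced by shear stress in endothelium, was at 137 and 292 CPM (4.17 and 4.83), beside 352 and 656 CPM in endothelial nuclei.

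Several named genes were spread over most members. Dock5, an activator of Rac, was found in 12 of 17 male and 27 of 35 female members at 286 and 697 CPM (4.03 and 4.69). Slc7a2, a cationic amino acid transporter, was found in 11 and 23 members at 274 and 505 CPM (4.15 and 4.58), and Nxn, a thioredoxin-like redox protein, in 10 and 25 at 386 and 527 CPM (4.08 and 3.91). Others were held by fewer nuclei. Aox3, an aldehyde oxidase, was found in 6 and 9 members (5.66 and 3.92), and Dab2, an endocytic adaptor, in 8 and 12 (4.85 and 3.73). The mechanically gated channel Piezo2 was found in 7 and 16 members (4.39 and 4.50), and Trabd2b, a Wnt-cleaving protease, in 7 and 19 (3.96 and 3.84).

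Of 18 solute carriers of the meninges, 6 were measured and 4 were past 4-fold, beside 5.83% of all 1423 genes. Slc6a20a (mm10 chromosome 9, 123634770 to 123678885), a proline transporter, stood at 784 CPM in male and 235 CPM in female members. Pericyte and smooth muscle nuclei were at 606 and 672 CPM, below the members in the male and above them in the female library, and astrocytes at 4.88 and 3.15 CPM. Slc7a11, the cystine and glutamate exchanger, stood at 908 and 199 CPM, ratios of 5.13 and 2.94. Slc38a2, a neutral amino acid transporter, stood at 846 and 2370 CPM, ratios of 2.97 and 4.49. Slc9a2, a sodium and proton exchanger, was at 2.06 and 2.82.

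Of 27 transcription factors of meningeal cells, 6 were measured and Foxp2, Zic1, Eya2 and Ebf1 were past 4-fold. The share among all 1423 genes was 5.83%, and this list was chosen with earlier results of these data known. Ebf1 was at 236 and 206 CPM, below endothelial nuclei (1273 and 809 CPM) and pericyte and smooth muscle nuclei (829 and 1858 CPM). Foxp2 stood at 933 CPM in male and 1295 CPM in female members, ratios of 5.73 and 4.86, and was detected in 13 and 27 of them. Eya2, a transcriptional coactivator, was at 5.32 and 5.97, and Zic1, a zinc finger factor of the meninges and the dorsal neural tube, at 4.69 and 4.33. Members held Zic1 at 162 and 249 CPM, beside 80.9 and 243 CPM in pericyte and smooth muscle nuclei, so the female levels were alike. Foxc1, a factor required for meningeal development, fell under the count minimum with 8 and 18 UMIs, at 99.5 and 128 CPM. Foxp1 was found in all 17 and all 35 members, with ratios of 1.63 and 2.26.

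Of 26 secreted ligands and their binding proteins, 6 were measured and Bmp6, Igfbp2, Igfbp5 and Ptgds were past 4-fold, beside 5.83% of all 1423 genes. Bmp6, a bone morphogenetic protein, stood at 398 CPM in male and 512 CPM in female members, ratios of 4.95 and 5.11. Ptgds, the prostaglandin D synthase of the meninges and choroid plexus, stood at 1145 and 3388 CPM, ratios of 3.44 and 4.35. Of 21 growth factor and hormone receptors, 6 were measured and none was past 4-fold in both libraries. Fgfr2 lay near the other nuclei, at 0.05 and 0.05, and Tgfbr3 was at 0.48 and 2.21. Few genes of either list reached the count minimum.

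Aldh1a2, the enzyme that makes retinoic acid from retinal, had 12 male and 9 female UMIs, at 149 and 64.1 CPM. Stra8 (mm10 chromosome 6, 34920163 to 34939344) had no UMI in any member, and the other nuclei were at 0.03 CPM (male) and 0.06 CPM (female). The deletion could therefore not be read from its transcript in these cells.

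The members fell into kinds that hardly overlapped. Slc47a1 without Slc6a13 or Ranbp3l marked 8 of 17 male and 24 of 35 female members (47.1% with an interval of 23.0 to 72.2%, and 68.6% with 50.7 to 83.2%). Slc6a13 or Ranbp3l without Slc47a1 marked 8 of 17 and 7 of 35. Only 2 female members held both, and 1 male and 2 female members held neither. This division was made after the values were seen, and the genes given for it are descriptions. The Slc6a13 or Ranbp3l nuclei had the higher median depth in both libraries. The medians were 4602 against 3368 UMIs among male and 3929 against 3095 UMIs among female members. Of 1611 genes, 46 were at least 4-fold higher in the Slc47a1 nuclei (2.86%) and 19 in the Slc6a13 or Ranbp3l nuclei (1.18%), counting only genes past that fold in both libraries.

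Of 18 solute carriers, 8 were measured between the kinds, with 4 past 4-fold in both libraries toward Slc47a1 nuclei and 2 toward the others. Among all 1611 genes these shares were 2.86% and 1.18%. Slc4a10, a sodium-dependent bicarbonate transporter, was detected in all 8 male and all 24 female Slc47a1 nuclei, with 2 to 13 UMIs per nucleus (median 6.5) in male and 1 to 23 (median 10) in female nuclei. The Slc6a13 or Ranbp3l nuclei held it in 1 of 8 and 3 of 7 nuclei, with medians of 0. The levels were 1657 against 50.2 CPM in male and 2704 against 236 CPM in female members. Adamtsl3 was at 1172 CPM against no UMI in male and 1026 against 29.5 CPM in female members. The male level was 15.6-fold above the limit of 3 counts in the other kind. Such folds leave out the counting error of the higher side. Clic4, a chloride intracellular channel protein, was at 600 against 25.1 CPM and 1807 against 29.5 CPM.

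Further genes of these nuclei had no UMI or few UMIs in the other kind. Npr3, the natriuretic peptide clearance receptor, was at 257 and 256 CPM and had none in the other kind. This was 3.42-fold and 2.89-fold above the limit of 3 counts. The anion transporters Slc26a2 and Slc26a7 had 51 and 39 UMIs in Slc47a1 nuclei over both libraries and none in the other kind. Slc47a2, a relative of Slc47a1, had 10 and none. The efflux pump Abcg2 had 36 UMIs in 17 Slc47a1 nuclei and 2 UMIs in the other kind, and Cdh1, the epithelial cadherin, had 17 and 2. Abcb1a, the other efflux pump, had 16 UMIs against 0 in male and 21 against 4 in female nuclei, the 4 from 1 nucleus. Mgp was detected in all 8 male Slc47a1 nuclei and 16 of 24 female ones, against 1 nucleus of the other kind in each library. Of the 12 genes in the arachnoid barrier list, 4 were measured for this comparison, 1 was past 4-fold in both libraries toward Slc47a1 nuclei, and the signs were split, 2 toward each kind.

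Of the 22 basement membrane genes 3 were measured between the kinds, and 1 was past 4-fold toward the Slc6a13 or Ranbp3l nuclei in both libraries. Slc6a20a was detected in all 8 male and all 7 female nuclei of this kind, with 1 to 27 UMIs (median 2.5) and 1 to 9 UMIs (median 2), and in none of the 32 Slc47a1 nuclei. Its level was 18.4-fold above the limit of 3 counts in the male and 27.9-fold above it in the female library. Lama1, the laminin chain of the pial basement membrane, had 38 UMIs in 10 of 15 nuclei and none in Slc47a1 nuclei. The collagen IV chains Col4a5 and Col4a6, which sit side by side on the X chromosome, had 23 and 21 UMIs against 2 and 1. Pericyte and smooth muscle nuclei held Col4a5 at 40.4 CPM (male) and 100 CPM (female), beside 137 and 99.6 CPM over all members. The pericyte marker Atp13a5 was at 151 and 266 CPM in this kind, with no UMI in Slc47a1 nuclei. Pericyte and smooth muscle nuclei held it at 1031 and 1830 CPM, and the part of pericyte RNA in this kind was not tested. Aldh1a2, under the minimum of 30 UMIs, had 21 UMIs in 10 of 15 nuclei and none in the 32 others. This was 3.51-fold above the limit of 3 counts in the male and 7.60-fold above it in the female library. Igf2, an insulin-like growth factor, had 18 UMIs against 1, and the sulfate transporter Slc13a4 16 against 0.

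Trpm3, a calcium-permeable channel, reached 74 UMIs in 1 male and 155 UMIs in 1 female nucleus, with medians of 11.5 and 61 against 1.5 and 1.5 in Slc47a1 nuclei. Its levels were 3789 against 657 CPM in male and 13910 against 723 CPM in female members. Ptgds was at 1656 against 657 CPM and 10310 against 1387 CPM, higher in this kind in each library. Colec12, a scavenger receptor, had 50 male and 31 female UMIs against 1 and 0. Transcription factors divided too: Tbx18 had 18 UMIs against 2 in Slc47a1 nuclei, whereas Tbx15 had 3 against 29 and Foxd1 2 against 19. Cped1 was found in both kinds, at 686 and 1079 CPM in male and 769 and 1358 CPM in female members with Slc47a1 nuclei first, log2 differences of -0.65 and -0.82.

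**Figure D3:**
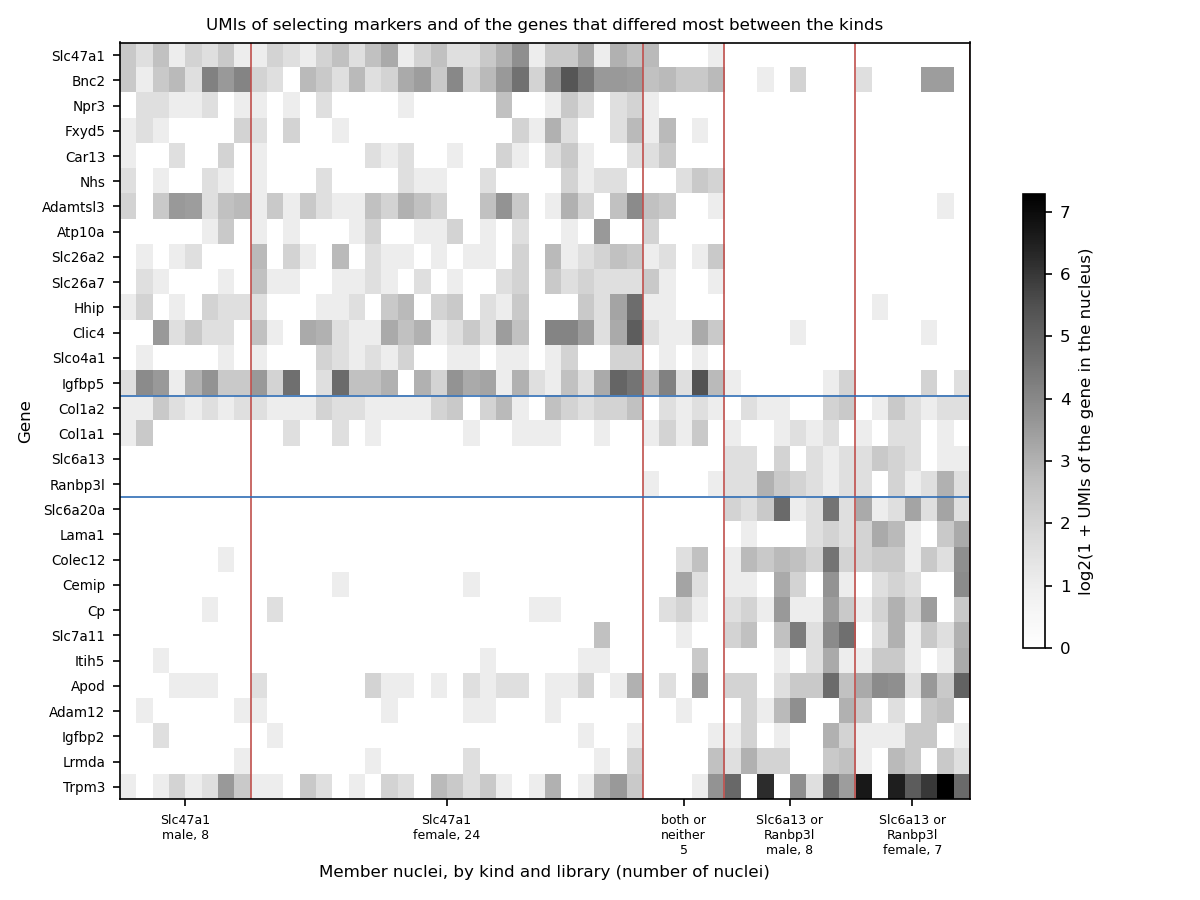
Each column is 1 of the 52 member nuclei, ordered by kind and library, each row a gene, and the grey scale gives log2 of 1 plus its UMIs. The upper rows (Slc47a1 to Igfbp5) are filled in the Slc47a1 nuclei and the lower rows (Slc6a20a to Trpm3) in the Slc6a13 or Ranbp3l nuclei, while Col1a2 in the middle is found in both; the 5 nuclei between them held both marks or neither.

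Promoters were read for genes of both kinds from the RefSeq table of GRCm38.p6, 250 bases before to 50 after a start site, in which 36 of 56 genes looked up were matched with 45 promoters. CCAAT in either direction was found in 17 of these 45 promoters, against 37.4% of all 32851 promoters of the table, and TATAAA in either direction in 4, against 13.6%. The 4 promoters below are shown because their genes stood on opposite sides of the division: Clic4 for Slc47a1 nuclei, and Slc6a13, Cemip (a hyaluronan-binding protein) and Aldh1a2 for the others. Slc6a13 has 3 start sites in the table, of which the second by position is shown. Capitals mark CCAAT (in Clic4, Slc6a13 and Aldh1a2) or TATAAA (in Cemip), and each sequence runs 5′ to 3′ in the direction of the gene.
Clic4, chr4:135272711-135273010, minus strand: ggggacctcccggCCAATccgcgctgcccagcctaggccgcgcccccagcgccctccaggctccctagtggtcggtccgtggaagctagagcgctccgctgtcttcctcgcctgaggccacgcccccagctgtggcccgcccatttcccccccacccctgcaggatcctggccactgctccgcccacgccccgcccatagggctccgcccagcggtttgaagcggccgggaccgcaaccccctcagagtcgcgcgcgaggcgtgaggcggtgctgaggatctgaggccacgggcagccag
Slc6a13, chr6:121300490-121300789, plus strand: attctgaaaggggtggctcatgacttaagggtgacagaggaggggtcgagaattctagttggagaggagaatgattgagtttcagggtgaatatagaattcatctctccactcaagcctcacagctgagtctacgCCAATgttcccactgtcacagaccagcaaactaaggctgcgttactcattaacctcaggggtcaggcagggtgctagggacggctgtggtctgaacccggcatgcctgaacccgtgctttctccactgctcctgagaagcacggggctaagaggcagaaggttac
Cemip, chr7:84086456-84086755, minus strand: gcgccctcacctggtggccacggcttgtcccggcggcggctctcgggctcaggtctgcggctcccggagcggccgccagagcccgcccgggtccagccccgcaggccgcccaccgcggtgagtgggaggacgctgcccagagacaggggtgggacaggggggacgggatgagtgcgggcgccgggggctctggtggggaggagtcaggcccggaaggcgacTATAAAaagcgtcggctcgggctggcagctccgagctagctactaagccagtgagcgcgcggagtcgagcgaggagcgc
Aldh1a2, chr9:71215539-71215838, plus strand: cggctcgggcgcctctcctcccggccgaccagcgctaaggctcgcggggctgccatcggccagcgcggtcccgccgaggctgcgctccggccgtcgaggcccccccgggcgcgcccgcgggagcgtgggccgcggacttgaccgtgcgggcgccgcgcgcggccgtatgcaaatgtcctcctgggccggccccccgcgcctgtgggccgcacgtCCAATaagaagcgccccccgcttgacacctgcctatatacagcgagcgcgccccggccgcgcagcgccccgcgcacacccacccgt
The TATAAA of Cemip starts 29 bases before the start site, and the CCAAT 237 bases before it in Clic4, 115 in Slc6a13 and 36 in Aldh1a2. The element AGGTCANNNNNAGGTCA of retinoic acid receptors was searched on both strands and was in none of the 45 promoters, and in 3 of all 32851. These matches describe the letters of the windows only.

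Between the libraries, 129 of 1613 genes were at least 2-fold higher in male members (8.0%) and 157 at least 2-fold higher in female members (9.73%), with a median log2 ratio of 0.01. These include 1 selecting marker on the male side (Ranbp3l) and 2 on the female side (Bnc2 and Slc47a1). The make-up differed, as Slc47a1 nuclei were 8 of 17 male and 24 of 35 female members, so the values within each kind stand beside the others. The 10 genes with the highest ratio on the female side hold matrix proteins and 3 ion and organic anion transporters, and the 10 on the male side hold several neuronal genes.

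Of the 10 genes with the highest ratio in female members, Fn1, the matrix glycoprotein fibronectin, had 4 male and 69 female UMIs (49.8 and 491 CPM, log2 male over female -3.18, interval -4.78 to -1.84). In other nuclei its ratio was -0.20. Prg4, the lubricant proteoglycan, had 1 and 38 UMIs (-3.98, interval -5.73 to -1.80), Gpc3, a heparan sulfate proteoglycan, 3 and 58 (-3.30, -5.09 to -1.80), and Igfbp6, a growth factor-binding protein, 2 and 29 (-2.82, -4.80 to -1.03). Eva1c, Fstl1 and Adamtsl1 were at -3.38, -2.53 and -2.96. The transporters Slc26a2, Slco4a1 and Slc26a7 were at -2.86, -2.82 and -2.44. None of the 10 was past 2-fold in other nuclei. Within Slc47a1 nuclei alone all 10 were lower in the male library, from -1.79 for Slc26a7 to -3.49 for Eva1c. The 10 genes were chosen by their ratio over members that include these nuclei, so these values are a description and no separate check. All 10 had fewer than 10 UMIs in the Slc6a13 or Ranbp3l nuclei.

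Of the 10 genes with the highest ratio in male members, Ttr, which carries thyroid hormone and is made in the choroid plexus, had 103 male and 12 female UMIs, a log2 ratio of 3.83 (3.00 to 4.76). It was detected in all 17 male members and 96.2% of male microglia, against 25.7% of female members and 24.9% of female microglia, and the ratio in other nuclei was 3.31. By CPM, Ttr was at 1281.5 (male) and 85.4 (female) in members and at 1724 and 147 in microglia. The part of stray RNA in the Ttr ratio was not tested. Nptxr (2.84), Slc17a7, the vesicular glutamate transporter (2.31), Hpca (2.22), Nrn1 (2.08) and Nsg2 (1.93) are neuronal genes. Excitatory neuron markers also summed to 5487 CPM in male and 2911 CPM in female members, and their part in these ratios was not tested. Of the 24 UMIs of Rorb in male Slc6a13 or Ranbp3l nuclei, all came from 2 nuclei.

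Slc7a11 was the member of this set tied to the kinds. It had 73 UMIs in 8 male and 28 in 7 female members (log2 ratio 2.16, interval 1.52 to 2.83), and other nuclei were at -0.03. In the Slc6a13 or Ranbp3l nuclei, 72 male UMIs gave 1807 CPM and 23 female UMIs gave 679 CPM, a ratio of 1.40. In the Slc47a1 nuclei the direction turned, with no male UMI and 5 female UMIs, all in 1 nucleus. Slc6a20a followed the same line, at 1.72 over all members and 0.70 within the Slc6a13 or Ranbp3l nuclei (1581 and 974 CPM). Of the 18 solute carriers, 8 were measured between the libraries, with 2 at least 2-fold higher in male and 5 in female members. Among all 1613 genes these counts were 129 and 157. Between the kinds 8 carriers were measured, 4 past 4-fold toward Slc47a1 nuclei and 2 toward the other kind in both libraries. The part of the different make-up of the libraries in the carrier counts was not tested.

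**Figure D4:**
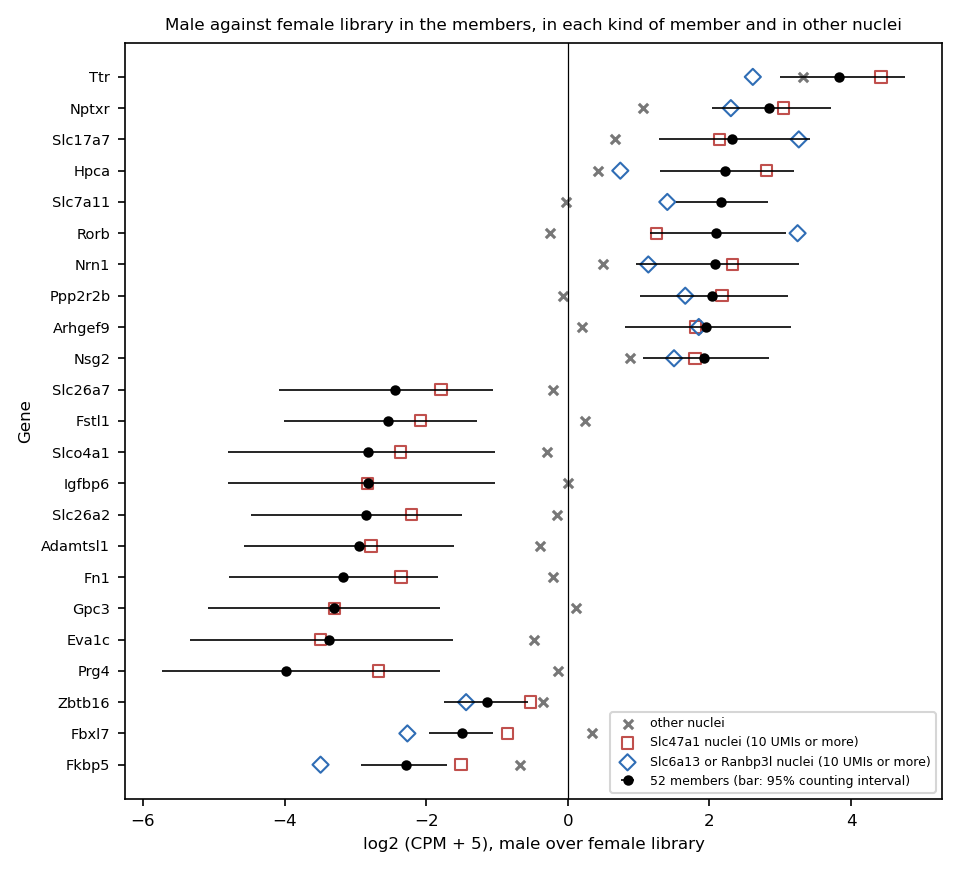
The horizontal axis gives the log2 ratio of male over female CPM plus 5 for 23 genes, with black points for all 52 members and bars for the 95% counting interval. Crosses are the other nuclei, and open symbols are each kind of member where it held at least 10 UMIs; Fkbp5 lies left of 0 in all of them, and Ttr right of 0.

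Of 19 genes known as targets of the glucocorticoid receptor, 6 were measured between the libraries. None was 2-fold higher in male and 3 were 2-fold higher in female members (Fkbp5, Tsc22d3 and Zbtb16). All 6 ratios lay on the female side, as did 799 of all 1613 genes, of which 157 were 2-fold higher in female members. The median of the 6 ratios was -0.89 in members and -0.46 in other nuclei. Between the kinds 6 targets were measured, 5 higher in Slc47a1 nuclei in both libraries and 1 higher in the other kind. Slc47a1 nuclei were 8 of 17 male and 24 of 35 female members, and the part of this make-up in the list was not tested. Fkbp5 (mm10 chromosome 17, 28399094 to 28517527), an immunophilin that binds the receptor complex, had 26 UMIs in 11 of 17 male and 225 UMIs in 32 of 35 female members. This was 323 against 1601 CPM, a log2 ratio of -2.29 (-2.92 to -1.71), beside -0.68 in the other nuclei. In Slc47a1 nuclei it was at 629 against 1795 CPM, with 1 to 9 UMIs (median 2) in male and 0 to 22 UMIs (median 5) in female nuclei, a ratio of -1.51. In the Slc6a13 or Ranbp3l nuclei it was at 100 against 1181 CPM, with 0 to 2 UMIs (median 0) and 0 to 10 UMIs (median 6), a ratio of -3.49. The ranges of nuclei overlapped in both kinds.

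The difference in Fkbp5 was not limited to members. Microglia were at 371 CPM in male and 1294 CPM in female nuclei and held a UMI in 54.4% and 88.7% of nuclei, against 64.7% and 91.4% of members. Endothelial nuclei were at 135 and 321 CPM and astrocytes at 82.4 and 141 CPM, while pericytes and smooth muscle were at 162 and 129 CPM. Tsc22d3, a leucine zipper protein, was at 137 and 334 CPM (-1.26), and Zbtb16 at 386 and 854 CPM (-1.14, interval -1.75 to -0.56). Within Slc47a1 nuclei Zbtb16 was at -0.53, under the ratio over all members. Sgk1 (-0.64), Klf9 (-0.53) and Glul (-0.34) lay under 2-fold. Fbxl7, an F-box protein fixed for this comparison, was at 622 and 1758 CPM in members (-1.49, -1.96 to -1.05), with the opposite sign in other nuclei (0.34).

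The promoter of Fkbp5 is shown because this gene had the largest difference among the glucocorticoid targets measured. Capitals mark CCAAT in either direction, 93 and 46 bases before the start site.
Fkbp5, chr17:28486100-28486399, minus strand: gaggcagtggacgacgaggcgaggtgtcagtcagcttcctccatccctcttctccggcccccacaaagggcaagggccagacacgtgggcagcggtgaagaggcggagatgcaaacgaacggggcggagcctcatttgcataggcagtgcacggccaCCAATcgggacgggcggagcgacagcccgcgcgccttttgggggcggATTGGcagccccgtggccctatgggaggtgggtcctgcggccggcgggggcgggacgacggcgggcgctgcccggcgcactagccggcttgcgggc
The palindromic element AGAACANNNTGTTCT of the receptor was in none of the 45 promoters read and in 3 of all 32851, so these windows say nothing of the receptor's binding elsewhere in the genes.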

How the data were processed

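Single-nucleus RNA of mouse hippocampus was measured in 1 male and 1 female library. The deposited matrices hold raw UMI counts per gene and barcode, and the file headers name Cell Ranger 7.0.1 as the software (counts as deposited, per the file headers). The submitters' processing notes name bcl2fastq 2.20.0.422 and mm10. Which annotation release was used, whether intronic reads were counted and how nuclei were called is not given in the sources used here. Of 32285 genes, 32158 were matched by identifier to GENCODE vM21 for positions.

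From the counts, members were chosen by the rule stated at the start, and UMIs were summed per library and group and given as CPM, with 5 CPM added to each side of a ratio. Other nuclei were all non-members that passed the limits of 500 genes and 5% mitochondrial UMIs. Comparison classes met the same kind of rule for 1 list only. Intervals at 95% are Clopper-Pearson for shares and conditional binomial for ratios (scipy 1.17.1, numpy 2.4.6, pandas 2.3.3). UMIs are molecules, but the intervals leave out biological spread. Genes were named by size: the 25 with the largest lower ratio of members over others in both libraries (at least 30 UMIs over members, 10 in each library and 10 nuclei), and the 10 highest and 10 lowest male over female ratios (at least 30 UMIs, 10 nuclei and 20 CPM in either library), with the selecting markers, Flt1, Cldn5, Stra8, Zbtb16, Fbxl7, Fkbp5 and Ttr. Sex-check and mitochondrial genes were left out of both rankings. Thinning drew 1000 UMIs per nucleus. The computations were tested on simulated data. The members and gene lists were chosen with earlier results of these data known. Doublets were treated by the limit of 10000 UMIs and by an alternative without members that met another class's rule. Results for some listed genes are not reported here.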

Additional observations from a re-analysis of the deposited data

Results flagged for a closer look

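Adamtsl1, a secreted matrix protein, lay below the other nuclei in male members, at a log2 ratio of -1.12 (4 UMIs, 49.8 against 114 CPM), and above them in female members, at 1.43 (59 UMIs, 420 against 152 CPM). It is given here because the libraries moved in opposite directions by at least 2-fold. The difference was not tested, since there is 1 library per group. Within Slc47a1 nuclei Adamtsl1 was at 85.7 CPM (male) and 618 CPM (female).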

How the results depend on the processing

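No paired analysis was possible because each group has 1 library, and no replicate could be left out. The share of male members was 0.0312% with at least 8 UMIs in at least 4 markers, 0.00624% without members that met another class's rule, 0.066% at a limit of 1% mitochondrial UMIs and 0.102% after thinning. The share of female members was 0.0519% in each of the first 2 settings, 0.106% at a limit of 1% mitochondrial UMIs and 0.271% after thinning to 1000 UMIs with 2 UMIs in 2 markers. The counts of genes 4-fold higher in members, 2-fold higher in male and 2-fold higher in female members (83, 129 and 157) were 44, 40 and 42 at a minimum of 60 UMIs, 17, 13 and 25 with 8 UMIs in 4 markers, 23, 20 and 38 at 1% mitochondrial UMIs, and 20, 8 and 24 after thinning. At a minimum of 15 UMIs the male and female counts were 337 and 393, and with no upper limit of UMIs the female count was 263. Within Slc47a1 nuclei they were 59 and 88, and within Slc6a13 or Ranbp3l nuclei 14 and 15; both settings were chosen after seeing the data. Fewer genes reached the minimum in the smaller sets of nuclei: 97 of 1423 with 8 UMIs in 4 markers, 273 at 1% mitochondrial UMIs and 115 after thinning. Without members that met another class's rule, 1 male and 10 female nuclei were left, 1 gene was measured in both libraries, and the counts were 0, 0 and 16. No replicated test was run, so these counts of 0 rest on 1 male nucleus.

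No named gene that kept enough UMIs changed sign under the settings run. Among those that fell under the minimum and so got no value, the sign of the ratio over other nuclei turned for 18 of 25 without members that met another class's rule. The male over female ratio turned for 5 of 22 there, for Rorb with 8 UMIs in 4 markers, for Nrn1 after thinning, for Slc7a11 within Slc47a1 nuclei and for Gpc3 within the other kind. Among genes with enough UMIs, Fkbp5 was at -1.20 without members that met another class's rule, Ppp2r2b at 0.28 with no upper limit of UMIs and Rorb at 1.15 without the nucleus that held most of its UMIs. With 80375 male member UMIs, a gene under 37.3 CPM could have been missed.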
